A study of Mus musculus with 375 samples.

Results

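The cells described here are the Myh7-high and Myh7-low cardiomyocytes of CD8-depleted hearts. They were chosen by their own Myh7 level: each of 2 numbered cell sets was ranked by Myh7 and cut into 3 pools of about equal size, and the high pool was set against the low pool. Set 1 gave 20 high and 20 low cells and set 2 gave 16 and 16, so the 72 cells are part of the 111 CD8-depleted cells kept (of 136 deposited) and of 375 cells in all. Every cell was a single left-ventricular cardiomyocyte of a male C57BL/6N mouse, taken 2 weeks after transverse aortic constriction (TAC), which narrows the aorta and overloads the left ventricle. The mice were 8 weeks old, and CD8-depleted mice received repeated intraperitoneal injections of an anti-CD8 antibody from the day of the operation on. WT cells, from mice with TAC and without the antibody, were cut into pools in the same way for comparison (19 high and 19 low cells in set 1, 20 and 20 in set 2). CD3e-/- mice, which lack T cells and also had TAC, enter as a description from set 2 alone (25 and 25 cells). Rod-shaped living cells had been picked by hand after enzymatic digestion of the heart, from 2 mice. Whether each set came from a mouse of its own is not given in the sources used here. The p-values reflect how much the differences between pools varied from set to set within a group. CD8-depleted and WT sums share that estimate, and the spread may be technical.

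Myh7 encodes the slow β-myosin heavy chain, and Myh6 the fast α-chain that prevails in the adult mouse ventricle. The overloaded mouse heart makes more Myh7, together with other genes of the fetal program such as Nppa, which encodes the atrial natriuretic peptide. Adult cardiomyocytes draw most of their ATP from oxidative phosphorylation: complexes I, III and IV of the respiratory chain pump protons across the inner mitochondrial membrane, and ATP synthase uses the gradient. Most subunits are encoded in the nucleus and a few in mitochondrial DNA.

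Myh7 lies on chromosome 14 (54970684 to 54994626, mm10, minus strand), next to Myh6 (54941921 to 54966927). Their coding sequences are very similar, so how reads were shared between them is uncertain. Nppa is on chromosome 4 (148000722 to 148002079, plus strand). Atp5g1, a gene of the ATP synthase membrane ring and the one gene that passed the test below, is on chromosome 11 (96068852 to 96075670, minus strand). The stretches ahead of the start sites are shown for the gene that chose the cells, the natriuretic peptide gene that accompanies it, the gene that passed, and 2 genes whose windows hold an element of nuclear receptors of energy metabolism. The last 2 had the smallest p below among respiratory genes with that element and a start site near the gene model. Each is the 250 bases before a start site in RefSeq (GRCm38.p6). In Myh7 (chr14:54994627-54994876, minus strand) capitals mark an MCAT element, CATTCC on either strand, the sequence bound by TEAD factors. In Nppa (chr4:148000472-148000721, plus strand) they mark the letters TATAAA, the motif of a TATA box, which begin at -9 from that start site. Whether they act as a TATA box was not tested.
Myh7: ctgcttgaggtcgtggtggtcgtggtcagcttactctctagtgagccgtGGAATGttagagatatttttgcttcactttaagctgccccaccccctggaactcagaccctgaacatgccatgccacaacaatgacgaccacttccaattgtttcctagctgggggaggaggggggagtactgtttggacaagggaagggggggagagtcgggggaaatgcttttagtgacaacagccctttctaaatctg
Nppa: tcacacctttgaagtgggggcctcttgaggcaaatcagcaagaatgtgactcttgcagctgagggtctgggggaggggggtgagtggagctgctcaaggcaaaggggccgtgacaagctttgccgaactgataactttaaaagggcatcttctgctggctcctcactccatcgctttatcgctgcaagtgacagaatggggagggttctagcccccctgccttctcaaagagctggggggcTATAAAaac
Of the 8714 tested genes with such a window, 10.5% hold an MCAT element and 6.3% the TATA letters on either strand. The next windows belong to genes of ATP synthase and complex I. Atp5g1 (chr11:96075632-96075881, minus strand) holds neither the ERR element AAGGTCA nor the ETS core CCGGAAG on either strand, and so has no capitals. Atp5g3 (chr2:73911327-73911576, minus strand), whose product is the same ring subunit, and Ndufs5 (chr4:123718187-123718436, minus strand), a complex I subunit, hold an ERR element in capitals, the sequence read by estrogen-related receptors.
Atp5g1: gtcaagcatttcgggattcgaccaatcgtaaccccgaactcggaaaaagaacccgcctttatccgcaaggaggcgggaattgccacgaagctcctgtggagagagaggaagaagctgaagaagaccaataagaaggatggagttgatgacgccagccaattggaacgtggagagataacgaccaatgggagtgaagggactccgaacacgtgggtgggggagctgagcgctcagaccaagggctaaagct
Atp5g3: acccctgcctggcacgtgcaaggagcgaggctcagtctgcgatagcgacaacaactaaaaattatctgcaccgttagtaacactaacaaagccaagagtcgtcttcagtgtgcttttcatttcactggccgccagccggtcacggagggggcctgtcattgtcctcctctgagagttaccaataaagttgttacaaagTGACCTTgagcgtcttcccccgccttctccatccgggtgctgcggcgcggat
Ndufs5: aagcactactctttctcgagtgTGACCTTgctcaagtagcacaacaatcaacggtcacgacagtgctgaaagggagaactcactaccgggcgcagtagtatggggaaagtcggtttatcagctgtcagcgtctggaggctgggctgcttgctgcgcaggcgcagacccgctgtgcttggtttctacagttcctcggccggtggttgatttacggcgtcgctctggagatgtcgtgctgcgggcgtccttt
The ERR element was found in 6 of the 64 respiratory-chain and ATP synthase genes with a window (9.38%) and in 2.67% of all windows. The NRF1 site was found in 4 of 64 (6.25%, against 1.65%). The ETS core was found in 10 of 64 (15.6%, against 14.6%). The GATA element AGATAA and the TATA letters were each found in 6 of 64 as well (9.38%, against 5.46% and 6.3%). The MCAT element was found in 7 of 64 (10.9%, against 10.5%). These matches describe letters and not bound sites.

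Levels are given in CPM, the counts of a gene relative to the summed counts of all nuclear genes. In set 1, Myh7 ranged from 432 to 845 CPM in the low pool (median 577) and from 1407 to 12010.4 CPM in the high pool (median 2107). In set 2 it ranged from 186 to 629 CPM (median 479) and from 1531 to 22881 CPM (median 3138). Myh7 chose these cells, so this difference is a description and was not tested. The pools met without a gap in set 1, where the last high cell had 1407 CPM and the next cell 1390 CPM, and where the last low cell had 845 CPM and the next 868 CPM. In set 2 the values at these edges were 1531 and 1343 CPM, and 629 and 652 CPM. A few cells carried much of the Myh7: 1 cell held 30.8% of the Myh7 counts of the high pool in set 1, and 1 cell 28.4% in set 2. The high pool of WT set 1 lay at 232 to 847 CPM, near the CD8-depleted low pools, and that of WT set 2 at 586 to 3097 CPM.

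**Figure D1:**
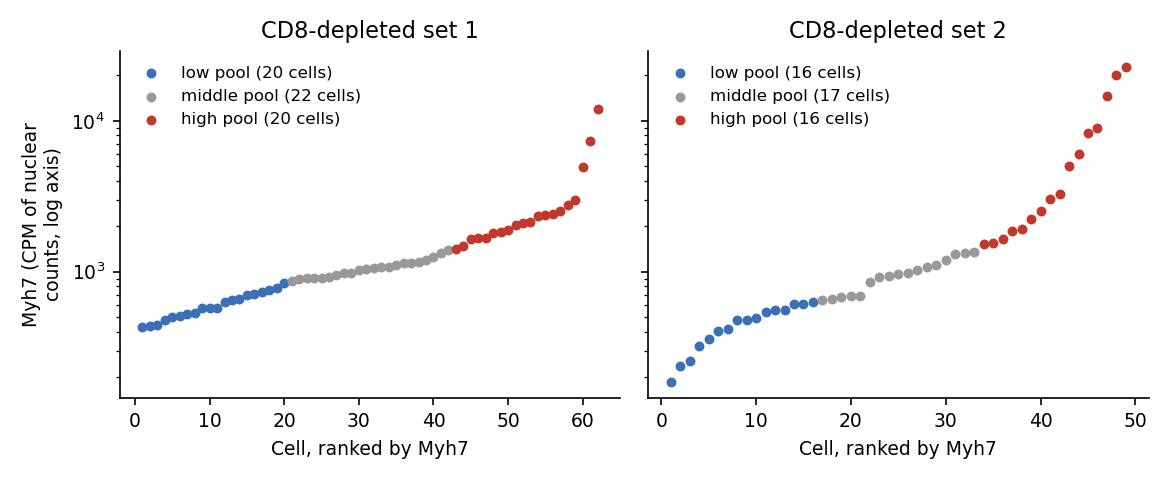
Myh7 in every CD8-depleted cell kept, ranked within each set (x axis: rank; y axis: CPM of nuclear counts, log axis; colours: pools). The topmost cells reach 12010 CPM in set 1 and 22881 CPM in set 2, far above the edges of the high pools at 1407 and 1531 CPM.

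The pools also differed in depth and in the share of mitochondrial RNA. The median nuclear count per cell was 71332 in the high and 121318 in the low pool of set 1, and 91636 and 115588 in set 2. Transcripts of mitochondrial DNA made up a median of 95.3% of all counts in high and 90.5% in low cells of set 1, and 91.7% and 88.8% in set 2. Across cells Myh7 correlated with nuclear counts at a Spearman rho of -0.42 in set 1 (62 cells) and -0.24 in set 2 (49 cells), a description in which both measures share the count total. The part of depth and mitochondrial share in the results was not tested. For the main lists and genes, values from pools taken within 3 bins of nuclear count stand beside the results; these bins narrowed the gap in depth in set 1 (94219 in high and 105816 in low cells) and less so in set 2 (93520 and 110223).

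Markers of ventricular cardiomyocytes prevailed, and markers of some other cells were present beside them. All 14 markers of ventricular cardiomyocytes were tested and together took 172421 to 217724 CPM in the 4 high and low sums. The 14 lymphocyte markers took 0 to 13.7 CPM, with 6 of them at 0 in all 4 sums, and the 15 macrophage and monocyte markers 6.21 to 26.7 CPM, with 4 at 0. Endothelial markers took 404 CPM in the low and 691 CPM in the high pool of set 1, and 2204 and 2305 CPM in set 2. Mural markers took 2122 and 2907 CPM, and 2398 and 4030.3 CPM. Fibroblast markers took 127 CPM in the low and 146 CPM in the high pool of set 1, but 234 and 863 CPM in set 2, where 1 cell held 45.9% of the latter. The part of these other markers in the results was not tested.

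In Myh7-high cells, 1 gene was lower than in Myh7-low cells at an adjusted p under 0.05 (0.00919% of 10877 tested), and 0 were higher (0%). Each pool was added up into 1 profile, and CD8-depleted and WT sums were tested in 1 fit by edgeR's quasi-likelihood test with Benjamini-Hochberg adjustment. A log2 value is the high over the low pool after scaling with edgeR's TMM factors. At an unadjusted p under 0.05, 496 genes were lower (4.56%) and 303 higher (2.79%). By sign alone, 5299 of the tested genes were lower and 5578 higher. On the same sums DESeq2 called 140 genes lower and 38 higher, and limma-voom called 0, with 385 genes at an unadjusted p under 0.05. DESeq2 gave no adjusted p to 5272 of the 10877 genes, so its adjustment covered fewer genes than that of edgeR.

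The gene that passed was Atp5g1. Its level in the low, middle and high pool was 7765, 7057 and 5213 CPM in set 1 and 8602, 6769 and 4379.8 CPM in set 2. Both high sums lay below both low and both middle sums. In the fit it fell by 0.97 on the log2 scale (SE 0.148, edgeR adjusted p = 0.0486). Single cells of set 1 ran from 2683 to 11552 CPM (median 6948) in the low pool and from 2295 to 9449 CPM (median 5078) in the high pool. In set 2 they ran from 1537 to 12786 CPM (median 8189) and from 1576 to 8654 CPM (median 3846). Cells of the pools thus overlapped in both sets. The direction held in 19 of 19 alternatives and the call in 10. It did not pass when CD8-depleted set 2 was left out (adjusted p = 0.715), without the set as a replicate block (0.876) and with mitochondrial genes kept in the totals (0.964).

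The 77 nuclear genes of complexes I, III and IV with cytochrome c and of ATP synthase were lower in the high pool in 77 of 77 cases. Of these, 68 had an unadjusted p under 0.05 (88.3%, beside 4.56% of all genes), and 1 passed the adjusted threshold. In 75 of 77 the high sum was lower in both sets, as it was in 24.8% of all genes (29% were higher in both). Without TMM it was lower in both sets in 70 of 77 and higher in both in 1. Of all 10877 genes, 2070 were then lower and 3912 higher in both sets. In 43 of 77 the level stepped down from low to middle to high in both sets, against 3.86% of all genes. Their median log2 was -0.64, with the median of all genes at 0.03, and it was -0.40 within set 1 and -0.86 within set 2. Summed, they took 165453, 164861 and 137582 CPM in the low, middle and high pool of set 1, and 227505, 212499 and 164001 CPM in set 2. The middle pool of set 1 thus lay at the level of its low pool. The list was chosen with earlier results of these cells known, so its count is a description.

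**Figure D2:**
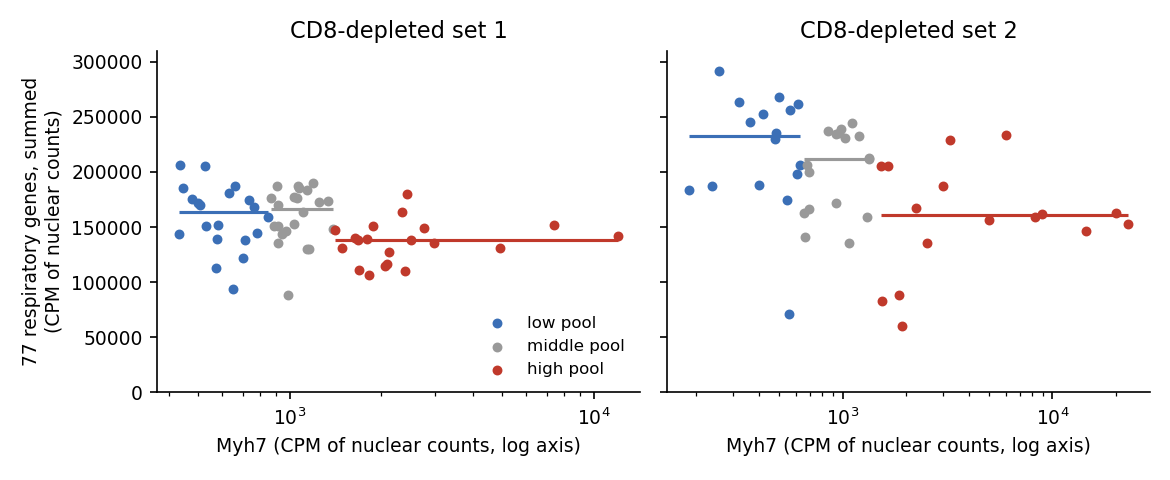
Summed level of the 77 respiratory-chain and ATP synthase genes in each CD8-depleted cell (y axis, CPM) against Myh7 (x axis, CPM, log axis), by set and pool, with a horizontal line at the median of each pool. In set 1, 18 of 20 high cells lie under the median of the low cells, and in set 2, 15 of 16.

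Per cell, these genes took a median of 16.3% of nuclear counts in the low and 13.9% in the high pool of set 1, and 23.3% and 16.1% in set 2. The ranges overlapped, at 93837 to 206560 CPM in low and 106100 to 179960 CPM in high cells of set 1, and at 71049 to 291190 CPM and 60027 to 233610 CPM in set 2. Across cells the sum correlated with Myh7 at a rho of -0.35 in set 1 and -0.48 in set 2, and with the nuclear count of the cell at 0.47 and 0.49.

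The size of this difference varied with how the cells and counts were treated. With pools taken within depth bins 71 of 77 genes were lower, at a median of -0.34. With the 103 of 111 cells that reached 50000 nuclear counts thinned to that number the median was -0.48, and with cells ranked by the share of Myh7 in Myh6 plus Myh7 it was -0.50 (76 of 77 lower). With mitochondrial genes kept, both in the ranking by Myh7 and in the totals and genes of the fit, 61 of 77 were lower but the median was -0.11. Its ranking kept 12 of 20 high cells in set 1 and 13 of 16 in set 2, and its high pools had the lower mitochondrial share, 91.6% against 95.4% in set 1 and 89.7% against 92.0% in set 2.

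Complex I takes electrons from NADH. Its 36 of 36 nuclear genes were lower in the fit and in each set, 32 with an unadjusted p under 0.05, at a median of -0.61 (-0.39 in set 1, -0.85 in set 2, -0.29 within depth bins). Without TMM 35 were lower in both sets. Ndufa4, a small subunit also assigned to complex IV, had 1932 and 1259 CPM in set 1 and 1927 and 1247 CPM in set 2 in the low and high pool (log2 -0.83, SE 0.171, edgeR adjusted p = 0.0912). Ndufa9, an accessory subunit, had 1617 and 963 CPM in set 1 and 1308 and 808 CPM in set 2 (log2 -0.92, adjusted p = 0.102). Ndufb8, a subunit of the membrane arm, had 2289.6 and 1439 CPM in set 1 and 2047 and 1393 CPM in set 2 (log2 -0.81, adjusted p = 0.102). In each of them the high sum was the lowest of its set.

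Complexes III and IV pass electrons to cytochrome c and on to oxygen. All 23 of 23 genes were lower in the fit, 21 with an unadjusted p under 0.05, at a median of -0.65 (-0.33 and -0.90 by set, -0.43 within depth bins). The largest difference among them was that of Uqcrc2, a core protein of complex III on chromosome 7 (120635176 to 120659524). It had 1339, 915 and 754 CPM from low to high in set 1 and 763, 387 and 265 CPM in set 2 (log2 -1.38, SE 0.232), and missed the threshold at an edgeR adjusted p of 0.0553. Cox5a, a subunit of complex IV, had 2493 and 1415 CPM in set 1 and 1885 and 1175 CPM in set 2 (log2 -0.95, adjusted p = 0.0553). Cycs, cytochrome c itself, had 1859 and 1137 CPM in set 1 and 1803 and 977 CPM in set 2 (log2 -1.0, adjusted p = 0.0603). Cycs and several subunit genes have near-identical copies elsewhere in the genome, so their counts are uncertain.

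ATP synthase had 18 of 18 genes lower in the fit and 17 in both sets, at a median of -0.69 (-0.51 and -0.84 by set, -0.31 within depth bins). Without TMM 15 were lower in both sets and 1 was higher in both. Besides Atp5g1, Atp5c1, which encodes a subunit of the central stalk, had 2371 and 1224 CPM in set 1 and 1469.9 and 707 CPM in set 2 (log2 -1.20, SE 0.212, edgeR adjusted p = 0.0553). Atp5b, the catalytic β subunit, had 7379 and 5062 CPM in set 1 and 5854 and 3832 CPM in set 2 (log2 -0.78, adjusted p = 0.0587). With TMM, Atp5d, named after its values were seen, was the gene that did not lie lower in both sets (log2 -0.03). Of the genes with printed ERR elements, which were chosen by their small p, Atp5g3 stood at -0.68 and Ndufs5 at -0.66. The others with the element stood at -0.82 (Atpif1), -0.55 (Ndufb4), -0.53 (Atp5l) and -0.475 (Ndufb2).

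Other genes of mitochondrial energy supply lay on the same side. In the TCA cycle and the entry of pyruvate, 28 of 30 genes were lower, 14 with an unadjusted p under 0.05, at a median of -0.46. Suclg1, a subunit of succinyl-CoA ligase, had 869 and 450.2 CPM in set 1 and 409.7 and 180.2 CPM in set 2 (log2 -1.26, SE 0.248, edgeR adjusted p = 0.0794). Mdh2, mitochondrial malate dehydrogenase, stood at -0.86 and Sdhb, the iron-sulfur subunit of complex II, at -0.66. With mitochondrial genes kept 18 of 30 were lower at a median of -0.06 and Mdh2 turned to 0.00598, and within depth bins 25 were lower at -0.26. The exceptions, named after their values were seen, were Pdha1 at 0.34 and Sucla2 at 0.02. Among genes of the creatine kinase and nucleotide shuttle 14 of 16 were lower (median -0.45), and with mitochondrial genes kept 10 of 16 (median -0.06). Ckmt2, the mitochondrial creatine kinase of muscle, had 4176 and 2296 CPM in set 1 and 2217 and 1249 CPM in set 2 (log2 -1.05, adjusted p = 0.0553). Slc25a3, the mitochondrial phosphate carrier, stood at -0.77 and Vdac2, a pore of the outer mitochondrial membrane, at -0.99.

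Fatty acid uptake and oxidation was more mixed, with 22 of 34 genes lower, 10 of them at an unadjusted p under 0.05, and a median of -0.29 (-0.08 without TMM, -0.15 within depth bins). Acaa2, the thiolase of the last step of β-oxidation, had 1382 and 759 CPM in set 1 and 586 and 262 CPM in set 2 (log2 -1.20, SE 0.216, edgeR adjusted p = 0.0553). Cpt2, which completes the import of long-chain fatty acids into the mitochondrion, stood at -1.29 and Fabp3, the fatty acid carrier of heart cytosol, at -0.66. Ppara, a nuclear receptor that drives this pathway, was the one gene of the list higher at an unadjusted p under 0.05 and was named for that (log2 1.31, adjusted p = 0.536). In glycolysis 21 of 22 genes were lower (median -0.43), with Aldoa, aldolase A, at -0.60, Gapdh at -0.53 and Pgam2, the muscle phosphoglycerate mutase, at -0.44. Within depth bins 15 of 22 were lower (median -0.23), without TMM 15 (median -0.23), and with mitochondrial genes kept 12 (median -0.03), where Pgam2 turned to 0.0758. Gapdh has many near-identical copies, so its count is uncertain.

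Of the mitochondrial ribosomal protein genes, 73 of 77 were lower in the fit and 57 in both sets (median -0.53, -0.36 within depth bins and -0.20 with mitochondrial genes kept). Without TMM 45 were lower in both sets. Mrps28 stood at -1.32, Mrpl2 at -1.31 and Mrpl44 at -1.84. Pmpcb, a subunit of the protease that trims proteins imported into the mitochondrion, had 306 and 108 CPM in set 1 and 306 and 107 CPM in set 2 (log2 -1.72, edgeR adjusted p = 0.0553). Genes of the cytosolic ribosome, which also have many copies, were lower in 66 of 76 cases but at a median of -0.24, which was 0.01 in set 1 and -0.50 in set 2. That count rests on the scaling: without TMM 40 of 76 were lower at a median of -0.03, and within depth bins 47 at -0.05. Without TMM factors the median of all genes was 0.24 and that of the 77 respiratory genes -0.43. Less the median of all genes, the respiratory median was -0.66 with TMM and -0.66 without. The factors shift all genes of a sum nearly alike, so this agreement follows from the subtraction and is no test of the scaling.

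**Figure D3:**
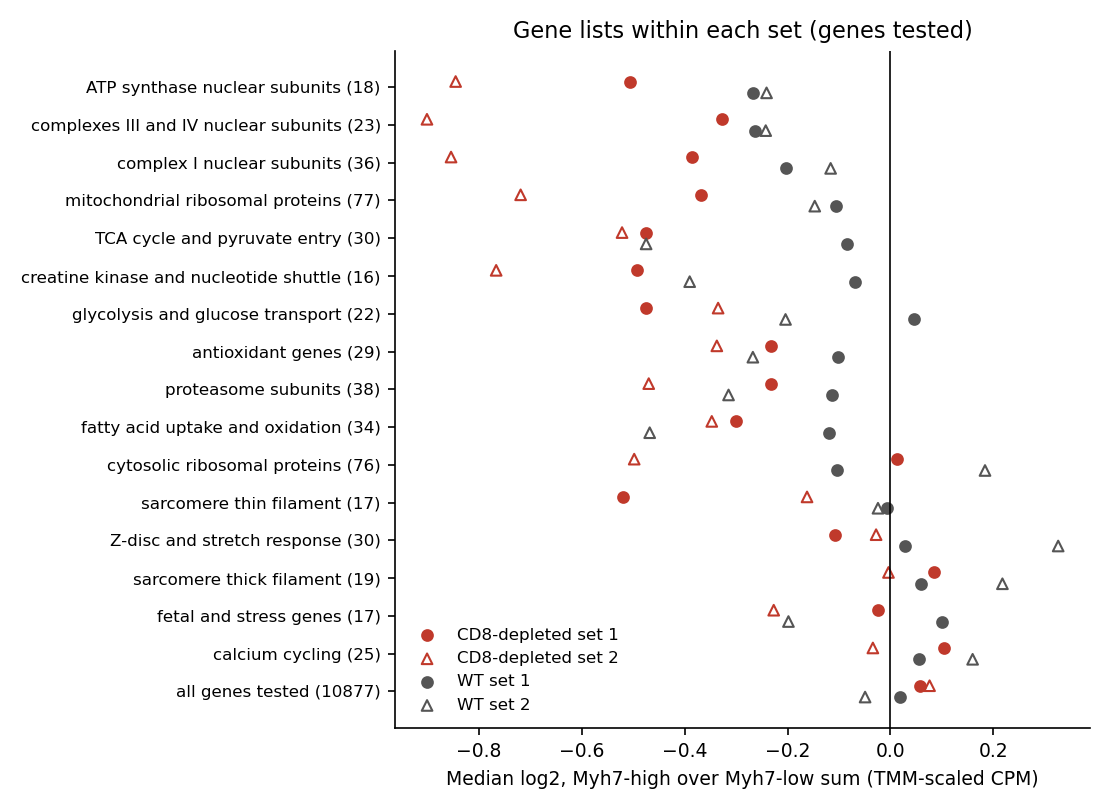
Median log2 of the high over the low pool for gene lists (number of genes tested in brackets) within CD8-depleted sets 1 and 2 and WT sets 1 and 2. The 3 respiratory lists lie between -0.90 and -0.33 in the CD8-depleted sets and between -0.27 and -0.12 in the WT sets.

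Among genes of the fetal and stress program 8 of 17 were higher and 9 lower, at a median of -0.06 (0.14 without TMM). This split depended on the setting. Within depth bins 6 were lower at a median of 0.47, and with mitochondrial genes kept 7 were lower at 0.35. The median was 0.05 with thinned cells. Nppa had 2061, 1829 and 4126 CPM in the low, middle and high pool of set 1 and 2767, 3254 and 14423 CPM in set 2. The high sum was the highest in each set. Its log2 was 1.5 (SE 0.401, edgeR adjusted p = 0.182), 0.89 in set 1 and 2.07 in set 2, and 1.28 within depth bins. Few cells carried it: in the high pool of set 2, 1 of 16 cells held 50.4% of the counts. Cells there ran from 499.9 to 51960.4 CPM (median 4133), beside 433 to 7813 CPM (median 1511) in low cells, and in set 1 from 59.8 to 33466 CPM (median 1174) and from 133 to 28499 CPM (median 961). The pools overlapped in both sets. Whether Nppa passed depended on the setting. With the highest cell of each sum left out Nppa stood at 1.24 with an adjusted p of 0.027. With cells ranked by the share of Myh7 in Myh6 plus Myh7 it stood at 1.92 with 0.0189. No gene was called higher, so Nppa did not pass, by limma-voom, without TMM factors or without the replicate block. The same held with CD8-depleted sums alone, thinned cells, shallow cells included, mitochondrial genes kept, and fewer or more pools per set. Nppb, which encodes the brain natriuretic peptide, had 813 and 814 CPM in set 1 and 870.5 and 912 CPM in set 2 (log2 -0.17, 0.0402 without TMM).

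Acta1, the skeletal α-actin gene of the fetal program, had 17284, 13098 and 12775 CPM from low to high in set 1 and 9663, 8612 and 4479.9 CPM in set 2. Within each set the high sum was the lowest, though the set 1 sums lay above those of set 2 throughout. Its log2 was -0.94 (SE 0.217, edgeR adjusted p = 0.123), the sign opposite to that of Nppa, and -0.438 within depth bins. Actc1, the cardiac α-actin gene, had 43295 and 26596 CPM in set 1 and 18999 and 22214 CPM in set 2 (log2 -0.44, adjusted p = 0.340), so that the sets went opposite ways before scaling. Ankrd1, a stretch-responsive nuclear co-factor, stood at 0.25, Xirp2, a protein of the intercalated disc, at 0.40, and Atp2a2, the calcium pump of the sarcoplasmic reticulum, at -0.27.

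Myh6 was not lower where Myh7 was high. It had 16512, 22319 and 25594 CPM from low to high in set 1 and 14986, 19590.1 and 18602 CPM in set 2 (log2 0.28, SE 0.162, edgeR adjusted p = 0.771). Across cells it correlated with Myh7 at a rho of 0.45 in set 1 and 0.24 in set 2, where the part of reads shared by the pair was not tested. The share of Myh7 in Myh6 plus Myh7 had a median of 3.49% in low and 6.27% in high cells of set 1, and of 2.88% and 16.5% in set 2. Myh7b, another heart myosin heavy chain gene, had 104, 127 and 190.0 CPM in set 1 and 22.5, 56.8 and 122 CPM in set 2 (log2 1.40, adjusted p = 0.511). It stepped up from low to high in both sets, as 5.04% of all genes did.

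**Figure D4:**
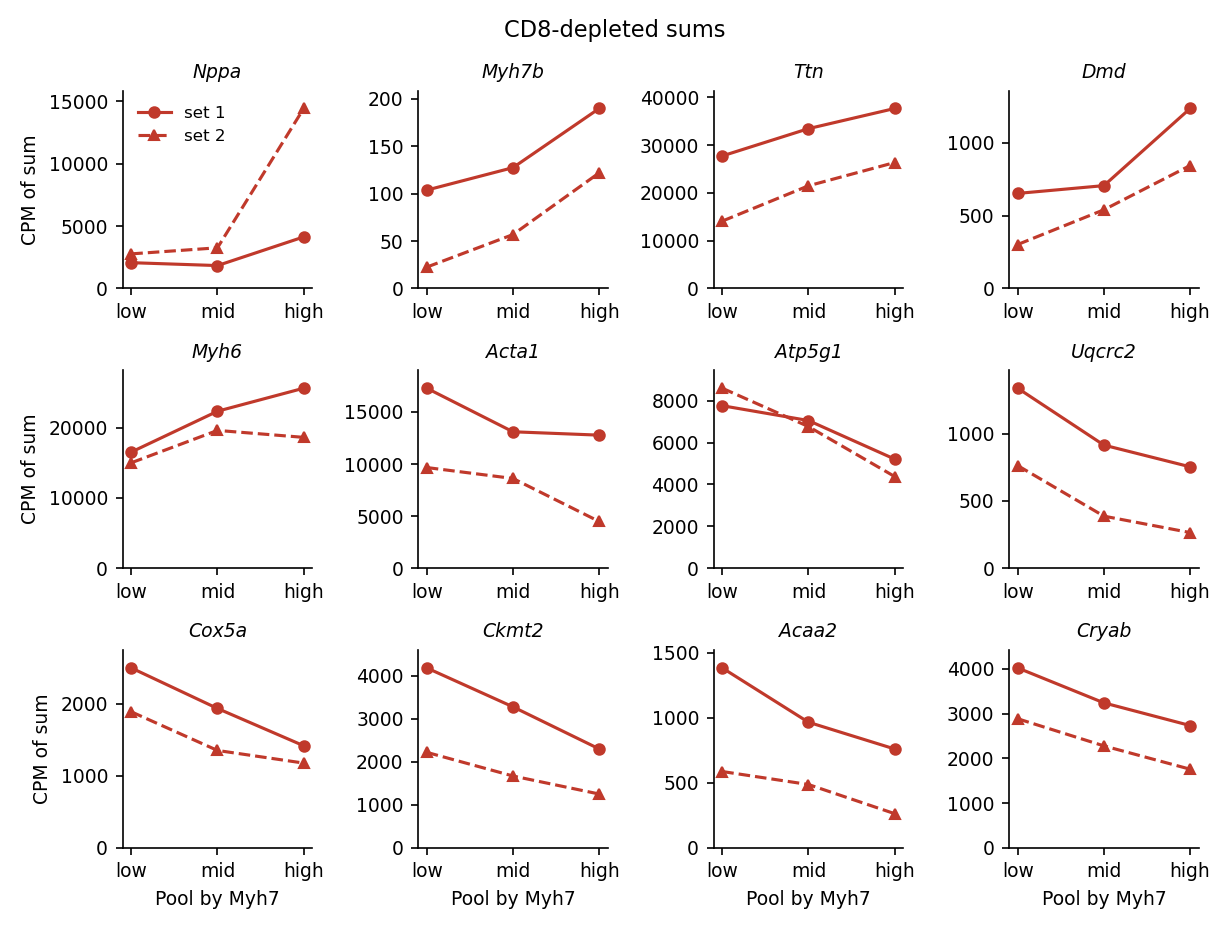
CPM of 12 genes in the summed low, middle and high pools (x axis) of CD8-depleted set 1 (solid) and set 2 (dashed), each y axis starting at 0. Nppa is highest in the high pool, Myh7b, Ttn and Dmd step up in both sets, and Atp5g1, Uqcrc2, Cox5a, Ckmt2, Acaa2 and Cryab step down in both.

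The sarcomere did not move as one. Of the thick filament genes other than Myh7, 9 of 19 were higher and 10 lower (median -0.06, 0.14 without TMM). Ttn, the giant spring of the sarcomere, had 27724, 33438 and 37657 CPM from low to high in set 1 and 14081, 21475 and 26340 CPM in set 2 (log2 0.47, SE 0.113, edgeR adjusted p = 0.155), a log2 of 0.536 within depth bins (adjusted p = 0.0355), but stood at -0.02 with cells ranked by the Myh7 share. Of the thin filament genes 11 of 17 were lower (median -0.35), with Tnnc1, cardiac troponin C, at -0.52 and Tpm1, tropomyosin, at -0.37. Tnnt2, cardiac troponin T, which the study had used to check cells by qPCR, stood at 0.24, Tnni3, cardiac troponin I, at -0.09 and Myl2, the ventricular light chain, at -0.12. The Z-disc list was split, 14 of 30 higher and 16 lower (median -0.10, 0.11 without TMM). Within it Cryab, a small heat shock protein that protects desmin and titin, had 4019 and 2732 CPM in set 1 and 2883 and 1756 CPM in set 2 (log2 -0.84, adjusted p = 0.0553), and Csrp3, the muscle LIM protein, stood at -0.71 (adjusted p = 0.0959). Calcium cycling genes were split 12 to 13, with Pln, the inhibitor of the calcium pump, at -0.11.

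By the rule for named genes, 6 genes led the higher side, and 0 of them passed the threshold. That rule required the same direction in both sets, here and on the lower side. Besides Ttn, Dmd, dystrophin, had 652 and 1234 CPM in set 1 and 301 and 843 CPM in set 2 in the low and high pool (log2 0.99, SE 0.244, edgeR adjusted p = 0.162). Kmt2c, a histone methyltransferase, had 75.6 and 210.2 CPM in set 1 and 28.7 and 122 CPM in set 2 (log2 1.55, adjusted p = 0.155). Apc, a scaffold of β-catenin breakdown, stood at 1.82, with 58.4% of its counts in the high pool of set 2 in 1 cell. Eif4e, the cap-binding translation factor, stood at 1.71, with 79% of its counts in the high pool of set 1 in 1 cell. Dnajc10, a disulfide reductase of the endoplasmic reticulum, had 13 and 99 counts in set 1 and 0 and 26 counts in set 2, where 0 counts leave its fold without a bound. Of the regulators of the myosin switch 12 of 20 were higher (median 0.29), beside 5578 of all 10877 tested genes (median 0.03). Med13, a subunit of Mediator, had 21.8 and 61.9 CPM in set 1 and 39.2 and 123 CPM in set 2 (log2 1.38), and Ppargc1a, a co-activator of mitochondrial genes, 175 and 204 CPM in set 1 and 85.6 and 177 CPM in set 2 (log2 0.41).

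Transcript length moved with these differences. Of 10 equal bins of tested genes by exon length, the shortest (median 1410 bases) had a median log2 of -0.31 and the longest (median 13100 bases) 0.34. In WT cells these medians were -0.16 and 0.03. Among the 1210 genes with at least 100 CPM, log2 and exon length had a rho of 0.43 in CD8-depleted and 0.28 in WT cells, across genes, which are not independent replicates. Over all 10877 tested genes, which make up the bins, the rho was 0.14 in CD8-depleted cells. The respiratory genes are short, with a median of 1587 bases against 4683 for all genes, and Ttn has 117334. Less the median of genes in the same length bin, the respiratory median was -0.42, and those of complex I, complexes III and IV and ATP synthase were -0.38, -0.37 and -0.52. That adjustment was chosen after seeing the data, and the part of length in the remaining difference was not tested.

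**Figure D5:**
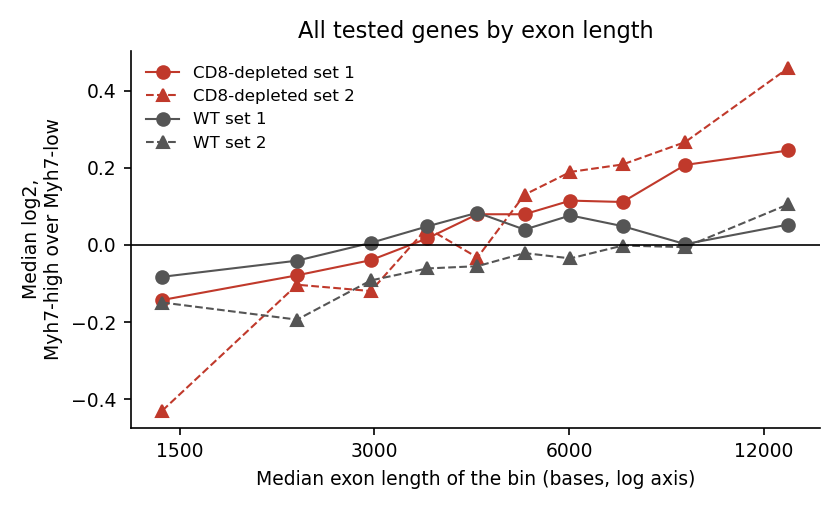
Median log2 of the high over the low pool for all tested genes in 10 bins of exon length (x axis: median length of the bin in bases, log axis), for both CD8-depleted and both WT sets. From the shortest to the longest bin the CD8-depleted medians go from -0.14 to 0.25 in set 1 and from -0.43 to 0.46 in set 2.

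In WT cells cut into pools the same way, 0 genes were higher (0%) and 0 lower (0%) at an edgeR adjusted p under 0.05, with 521 at an unadjusted p under 0.05, 17 called by DESeq2 and 0 by limma-voom. Of the 77 respiratory genes 73 were lower, 14 at an unadjusted p under 0.05, and their median was -0.23 (-0.24 and -0.20 by set). In the low pool of WT set 2, 1 cell had 6244 CPM of these genes, beside 85066 to 208216 CPM in the others. Its mitochondrial share was 39.7%. The part of this cell in the WT values and in the difference between groups was not tested. Of all 10877 tested genes 5772 were lower in WT, 292 at an unadjusted p under 0.05, at a median of -0.06. Atp5g1 stood at -0.24 in WT, Uqcrc2 at -0.56 and Cox5a at -0.46. The difference between CD8-depleted and WT cells was tested as an interaction: 0 genes were higher (0%) and 0 lower (0%) by edgeR, with 541 at an unadjusted p under 0.05, 15 called by DESeq2 and 0 by limma-voom. DESeq2 gave no adjusted p to 1477 genes in WT cells and to 1687 genes for the difference. The median difference over the 77 genes was -0.38, with 11 at an unadjusted p under 0.05. Acta1 stood at -0.94 in CD8-depleted and 0.68 in WT cells (difference -1.62, SE 0.305, edgeR unadjusted p = 5.55e-05, adjusted p = 0.500). Nppa stood at 0.10 in WT, with 228 and 313 CPM in the low and high pool of set 1 and 142 and 121 CPM in set 2 (difference 1.40, adjusted p = 0.927). The pools of WT cells span other Myh7 levels, so the contrasts are not alike in size.

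CD3e-/- set 2 has no second set here and was not tested. Its low pool had 109.7 to 639 CPM of Myh7 and its high pool 1829 to 16130.2 CPM. Its log2 values were taken without TMM factors. Of the 77 respiratory genes 70 were lower, as were 5060 of all 10877 tested genes. The respiratory median was -0.35, beside -0.43 in CD8-depleted cells without TMM. Atp5g1 had 6377 and 4848 CPM in the low and high pool, Uqcrc2 1427 and 1104 CPM and Nppa 3571 and 18041 CPM. Acta1 had 14506 and 15464 CPM, a log2 of 0.09 without TMM. Here too the median nuclear count differed, at 346406 in low and 187385 in high cells.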

How the data were processed

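Single cardiomyocytes were profiled by Smart-seq2. The deposited table holds raw counts of reads per gene that the authors made (21872 genes with exon lengths). The submitters' processing notes name fastp 0.21.0, STAR 2.7.5c, featureCounts and mm10, and the study's methods name another aligner and build. Whether counting used strand is not given in the sources used here. Cells with at least 3000 detected genes and no identical column were kept (320 of 375). CPM was computed over nuclear genes, since 13 mitochondrial genes held most counts. Each kept set was cut into 3 pools by Myh7 CPM, and counts were summed per pool, because cells are not replicates. CD8-depleted and WT sums (12) were fitted with edgeR 4.0.16 (TMM, quasi-likelihood, set as block) under R 4.3.3. Pools of a set are cells of that set, so the block follows from the construction. CD3e-/- set 1 had too few kept cells (11) and was not used. DESeq2 1.42.0, limma 3.58.1 (voom), other rankings, filters and scalings were tried as alternatives. Intervals of single cells are not given, since reads are not molecules here. The test was tried on simulated data. The cells and gene lists were chosen with earlier results of these data known. Genes were named by a rule: a panel of known genes, up to 12 called genes per direction (up to 6 with the smallest p where fewer were called) with at least 20 CPM, and up to 3 genes per list.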

Additional observations from a re-analysis of the deposited data

Results flagged for a closer look

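For 4 gene lists, the median log2 of the high over the low pool lay on opposite sides of 0 in both CD8-depleted and both WT sets, which is why they are given here, and the difference between the groups was not tested for the lists. The median over the genes of the CD8-depleted minus WT difference was -0.295 for genes of the Z-disc and stretch response, -0.183 for ion channels and junctions, -0.183 for hypertrophy signalling and transcription, and 1.43 for atrial and conduction markers, which include Nppa. The opposite signs of the first 3 lists rest on the scaling of the CD8-depleted sets: without TMM their medians in sets 1 and 2 were 0.0013 and 0.28 for the Z-disc list, 0.051 and 0.17 for ion channels and junctions, and -0.085 and 0.16 for hypertrophy signalling. For atrial and conduction markers they were 0.44 and 0.67.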

How the results depend on the processing

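The count of genes called in CD8-depleted cells was 1 and became 178 by DESeq2, 0 by limma-voom, 148 without the low-count filter, 0 without the replicate block, 0 with CD8-depleted sums alone, 0 with 2 pools per set in place of 3, 12 with 4 pools per set in place of 3, 0 with thinned cells, 9 with pools within depth bins, 23 without the highest cell of each sum, 2 with cells weighted alike and 0 with mitochondrial genes kept. Leaving out 1 set at a time gave 0 to 117 (7 and 0 when CD8-depleted sets 1 and 2 were dropped, 88 and 117 when WT sets 1 and 2 were). In WT cells the count of 0 became 17 by DESeq2, 20 without the low-count filter and 10 with mitochondrial genes kept. Leaving out 1 set at a time gave 0 to 57. For the difference between CD8-depleted and WT cells the count of 0 became 15 by DESeq2, 16 without the low-count filter and 4 with mitochondrial genes kept. Leaving out 1 set at a time gave 0 to 50. The median log2 of complex I nuclear subunits was -0.61, and it was -0.109 with mitochondrial genes kept, with -0.852 to -0.384 when 1 set was left out. The median log2 of complexes III and IV nuclear subunits was -0.648, and it was -0.174 with mitochondrial genes kept, with -0.898 to -0.325 when 1 set was left out. The median log2 of ATP synthase nuclear subunits was -0.685, and it was -0.422 with 2 pools per set in place of 3, -0.307 with pools within depth bins, -0.421 with cells weighted alike and -0.0695 with mitochondrial genes kept, with -0.843 to -0.503 when 1 set was left out. The median log2 of TCA cycle and pyruvate entry was -0.464, and it was -0.255 without TMM factors, -0.512 without the low-count filter, -0.321 with 2 pools per set in place of 3, -0.373 with 4 pools per set in place of 3, -0.429 with thinned cells, -0.263 with pools within depth bins, -0.307 with cells ranked by the share of Myh7 in Myh6 plus Myh7, -0.379 with all cells, shallow ones included, -0.418 without the highest cell of each sum, -0.265 with cells weighted alike and -0.0589 with mitochondrial genes kept, with -0.521 to -0.475 when 1 set was left out. The median log2 of mitochondrial ribosomal proteins was -0.534, and it was -0.204 with mitochondrial genes kept, with -0.72 to -0.371 when 1 set was left out. Named genes whose direction turned were mostly close to 0 or low in counts. Without TMM factors the log2 was 0.0402 for Nppb, 0.0852 for Myl2, 0.0984 for Pln, 0.122 for Tnni3 and 0.0355 for Ces1d. With 4 pools per set in place of 3 the log2 was 0.106 for Nppb, 1.28 for Myl4, 0.000186 for Tnni3 and 0.0321 for Ces1d. With pools within depth bins the log2 was 0.086 for Nppb, 0.0847 for Myl2, 4.52 for Myl4 and 0.0589 for Tnni3. With cells ranked by the share of Myh7 in Myh6 plus Myh7 the log2 was 0.18 for Nppb, 0.242 for Myl7, -0.0741 for Tnnt2, 0.231 for Csf1, -0.0233 for Ttn and -0.145 for Ppargc1a. With cells weighted alike the log2 was 0.0712 for Myl2, 0.201 for Myl4, 0.121 for Pln, 0.0974 for Tnni3 and 0.226 for Csf1. With mitochondrial genes kept the log2 was 0.0365 for Myl2, 1.59 for Myl4, 0.364 for Myl7, 0.153 for Tnni3, 0.00598 for Mdh2, 0.0758 for Pgam2, 0.0161 for Myl3, 0.0909 for Tpm1 and 0.03 for Mapk14. With thinned cells the log2 was 0.355 for Myl4, 0.0502 for Myl7 and 0.181 for Igf1r. With all cells, shallow ones included the log2 was 0.505 for Myl4, 0.0881 for Pln and 0.0648 for Igf1r. Without the replicate block the log2 was 0.374 for Myl7. Without the highest cell of each sum the log2 was 0.0114 for Tnni3. With 1 set left out the log2 ran from -0.401 to 0.14 for Myl2, -8.05 to 1.6 for Myl7, -0.346 to 0.106 for Pln, -0.195 to 0.00873 for Tnni3, -2.26 to 3.85 for Col1a1, -1.33 to 0.688 for Csf1, -1.33 to 0.306 for Igf1r, -0.349 to 0.725 for Hbegf and -1.63 to 1.24 for Ces1d. Without the replicate block Atp5g1 stood at -0.971 with an adjusted p of 0.876, and over its alternatives the adjusted p ran from 2.56e-12 to 0.964. Over all named genes and alternatives, 1164 values kept direction and side of the threshold, 178 passed it newly, 9 no longer passed it (each for Atp5g1) and 50 turned. The cause of these shifts was not tested. With 2 sets per group, an exact permutation test of a single value could not go below p = 0.333, and the low nuclear depth limits genes under about 20 CPM.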

Other observations

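Of the proteasome genes 29 of 38 were lower, 9 at an unadjusted p under 0.05, at a median of -0.29, but without TMM 23 were lower at -0.07 and with mitochondrial genes kept 19 at -0.0074. Genes of atrophy ligases and autophagy were split, 11 of 22 higher and 11 lower (median 0.03). Psmb2 and Psma3, subunits of the core particle, had 222 and 128 CPM in set 1 and 241 and 147 CPM in set 2 (log2 -0.96, edgeR adjusted p = 0.164) and 342 and 211 CPM in set 1 and 356 and 208 CPM in set 2 (log2 -0.93). Psmd14, a deubiquitinase of the regulatory particle, stood at -2.73, with 69.5% of its counts in the low pool of set 2 in 1 cell. Of the antioxidant genes 19 of 29 were lower (median -0.33, -0.13 without TMM and -0.09 with mitochondrial genes kept), with Sod2, mitochondrial superoxide dismutase, at 597 and 375 CPM in set 1 and 518 and 329.6 CPM in set 2 (log2 -0.86, adjusted p = 0.123) and Prdx3, a mitochondrial peroxiredoxin, at -0.95.

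Markers of other cells varied between sets. Mural markers took 2122 and 2907 CPM in the low and high pool of set 1 and 2398 and 4030.3 CPM in set 2. Endothelial markers took 404 and 691 CPM, and 2204 and 2305 CPM. Extracellular matrix genes took 586 and 696 CPM, and 1119 and 1703 CPM. Erythroid and platelet markers were lower in the high pools, at 599 and 151 CPM in set 1 and 447 and 95.9 CPM in set 2, and 0 of 5 genes had an unadjusted p under 0.05. Of the interferon and antigen presentation genes 21 of 36 were higher, with medians of -0.24 in set 1 and 1.40 in set 2.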
